A study of Mus musculus with 6 samples.

Results

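The genes described here carry the symbols of subunits of the mitochondrial respiratory chain and of ATP synthase. They were taken from the deposited expression table by symbol, as every row that begins with Nduf followed by a, b, c, s or v and a number, with Uqcr, with Cox4 to Cox8 or with Atp5, or that is *Sdha*, *Sdhb*, *Sdhc* or *Sdhd*, pseudogene symbols being left out. This gave 84 of the 23997 genes of the table, of which 37 carry symbols of complex I, 4 of complex II, 8 of complex III, 18 of complex IV and 17 of ATP synthase, also called complex V. Genes were placed by symbol only, and *Atp5sl*, which the annotation names Dmac2, is counted with ATP synthase for that reason. Subunits encoded by mitochondrial DNA are not analysed here.

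Bulk RNA-Seq was made from the ductus arteriosus (DA), the fetal artery between the pulmonary artery and the aorta, of C57BL/6 mouse embryos at E17.5. The table holds 3 libraries labelled wild type (WT 0, WT 1 and WT 2) and 3 labelled Prdm6f/f; SM22-Cre (KO 0, KO 1 and KO 2), all without treatment, and the WT embryos were littermates. In the KO embryos both alleles of *Prdm6*, which encodes a histone methyltransferase of smooth muscle cells (SMCs), are floxed and Cre-recombinase is driven by SM22, the promoter of an actin-binding protein of SMCs, so that the deletion is limited to cells in which this promoter is or was active. Neither the labels nor the methods say whether the DA of several embryos were pooled for a library, or whether the WT embryos carried the floxed allele or Cre, so p-values measure only the spread between these libraries.

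The respiratory chain passes electrons from NADH and succinate to oxygen through complexes I to IV and pumps protons across the inner mitochondrial membrane, and ATP synthase uses the proton gradient to make ATP. Complex I, complex IV and ATP synthase each have a catalytic core and many small subunits around it, and several subunits of complex IV exist in a common form and in a form of heart and skeletal muscle. In the DA, the mitochondria of SMCs are known as a sensor of oxygen that takes part in the constriction of the vessel at birth.

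Expression was deposited as FPKM, which counts the fragments of a gene in proportion to its transcript length and to all mapped fragments of the library. FPKM holds no counts, so the total depth is unknown. The spacing of low values gave relative depths of 0.927 to 1.19 against WT 1. Upper quartiles of FPKM ran from 10.4 to 10.8, and between 8338 and 11886 genes were listed at 0, with the most in WT 2. KO 0 stood apart in holding transcripts of both sexes. Its *Xist* level was 81.0 FPKM and its Ddx3y level was 26.4 FPKM, whereas each other library had a high level of only one of the pair. WT 1 and KO 2 had the highest summed FPKM of 15 heart muscle genes, at 1938 and 2215, against 170 to 769 in the other 4 libraries.

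Of the 84 genes, 79 had a mean of at least 1 FPKM over the 6 libraries and were tested. Those left out were *Cox6a2*, *Cox7b2*, *Cox8b*, *Cox8c* and *Atp5s*, and 2 of them, *Cox7b2* and *Cox8c*, were listed at 0 in every library. The comparison used limma on log2(FPKM + 0.1), fitted to all 12955 genes with a mean of at least 1 FPKM, with Benjamini-Hochberg adjustment over all of them. On this scale the change of genes with low FPKM is understated, and the median log2 fold change (KO minus WT) of all genes tested was 0.072.

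Most of the family was lower in the KO libraries, by moderate amounts that did not pass the adjusted test. The log2 fold change was negative for 55 of the 79 genes and positive for 24, against 44.4% negative among all genes tested. Its median was -0.30, or -0.37 relative to the median of all genes. An unadjusted p under 0.05 was reached by 22 genes that were lower in KO (27.8%), against a background of 4.97% of all genes tested, and by 1 gene that was higher, *Cox7a2l*, against a background of 3.31%. No member had an adjusted p under 0.05 by limma, and the smallest was 0.170, for *Ndufa6*. The background of that call was 0.00772%, a single gene of the table. The smallest p of the exact permutation test with 3 against 3 libraries is 0.1.

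The WT and KO libraries did not overlap for 18 members. Of these, 15 were lower in KO (19.0%, background 7.84%), and 3 were higher (background 8.21%), namely *Cox7a2l*, *Ndufs7* and *Cox7c*. The last 2 of these rested on WT 2, where *Ndufs7* was at 0.138 FPKM and *Cox7c* was listed at 0, while both had between 27.8 and 30.6 FPKM in the other WT libraries. For each of the 22 genes with an unadjusted p under 0.05 and lower in KO the highest of the 6 values was in a WT library, and for 16 of them the highest KO value was in KO 2. Their log2 fold changes lay between -6.86 and -0.66 and their adjusted p by limma between 0.170 and 0.600.

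**Figure D1:**
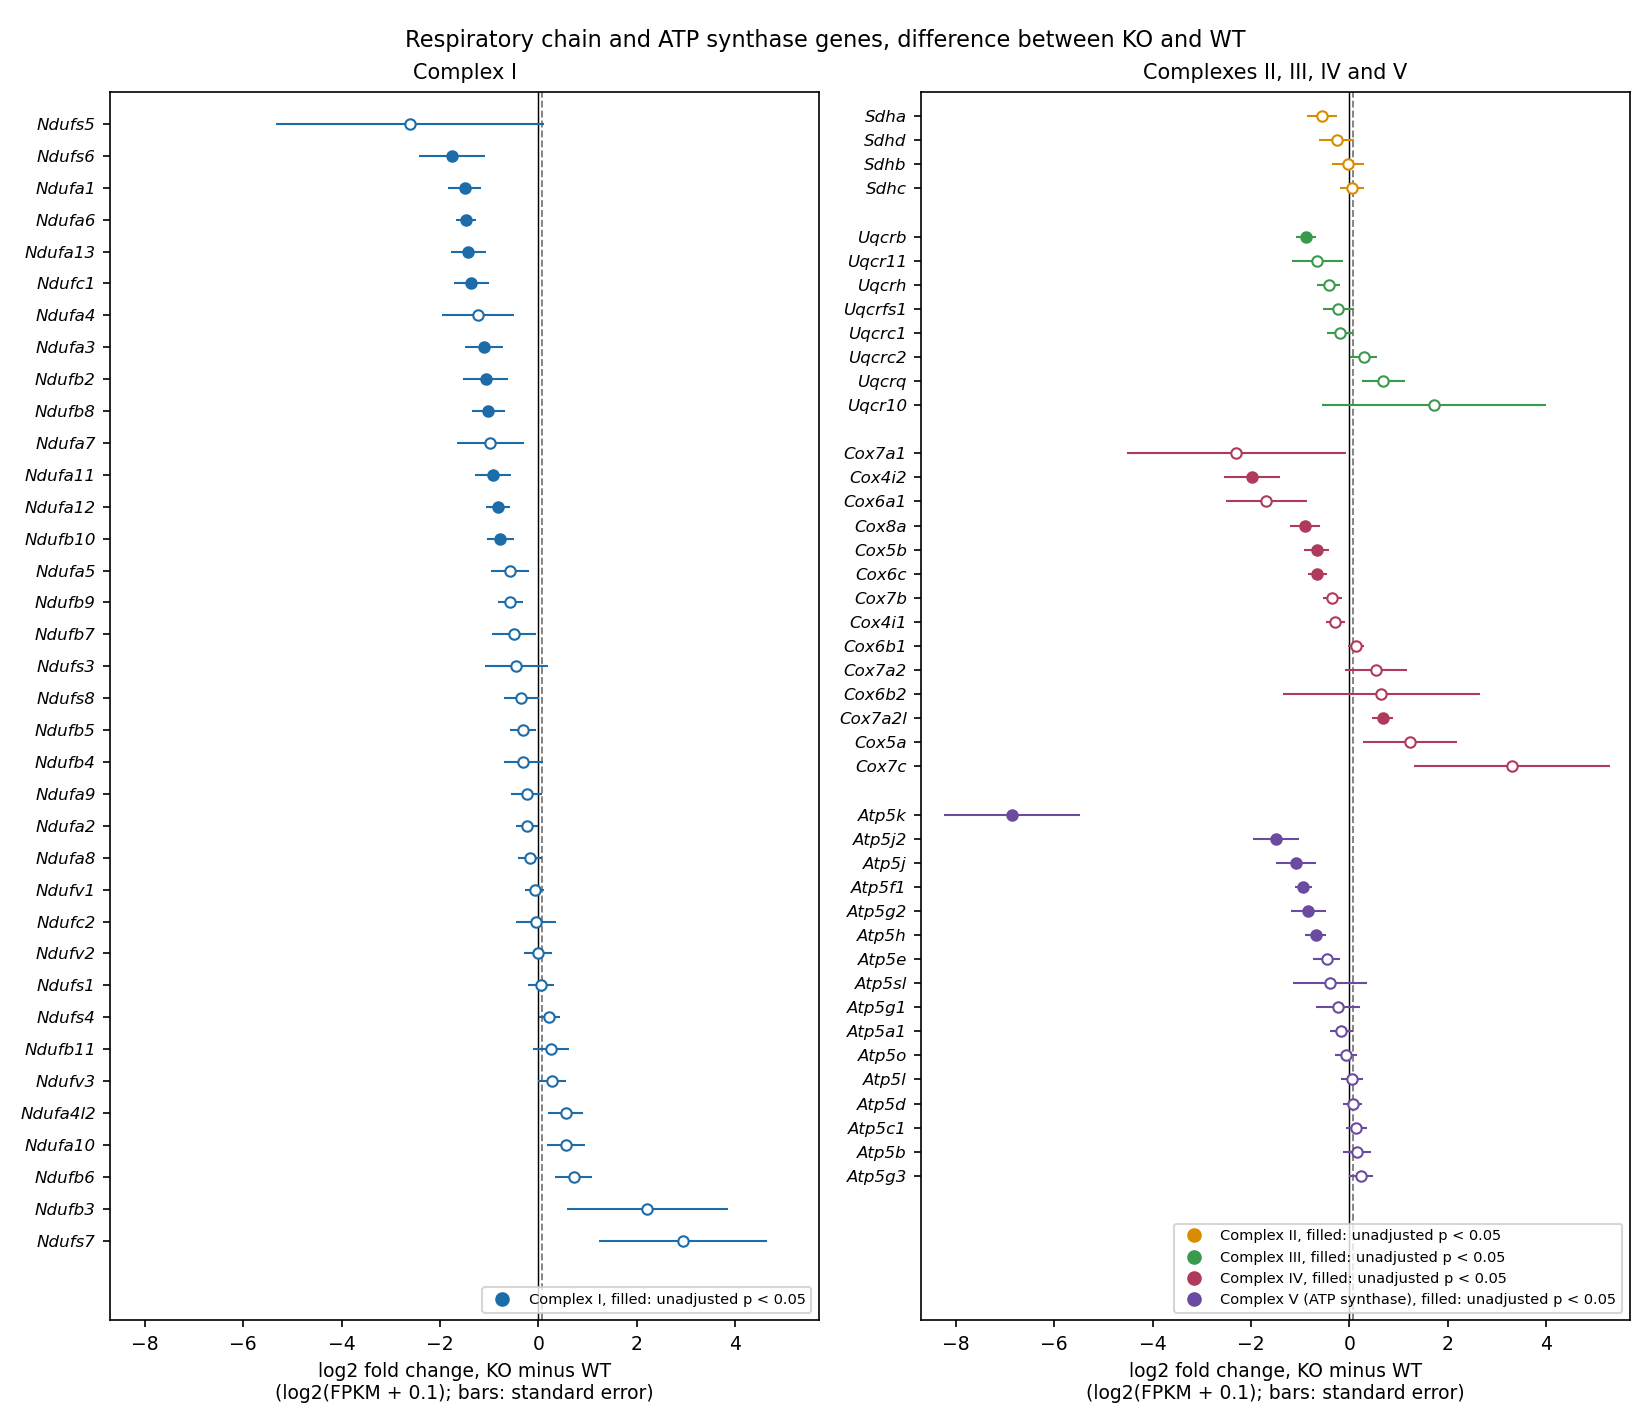
Log2 fold change (KO minus WT, on log2(FPKM + 0.1)) of 78 of the tested genes, with complex I at the left and complexes II to V at the right. Points are limma estimates from 3 WT and 3 KO libraries, bars are standard errors, filled points have an unadjusted p under 0.05, and the dashed line is the median of all genes tested (0.072). Filled points lie to the left of 0 for 22 genes and to the right for *Cox7a2l*.

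In complex I, which oxidises NADH, the median log2 fold change was -0.34, and 11 of 37 genes had an unadjusted p under 0.05, all lower in KO. The genes were split after their values were known into 7 that encode the conserved core, which carries the flavin and the iron-sulfur clusters, and 30 accessory genes. All 11 of the lower genes were accessory genes (36.7% of them, against 4.97% of all genes tested). The core held 0 of 7 at an unadjusted p under 0.05, and 7 genes are too few to tell this from 4.97%. The difference between the core and the accessory genes was not tested.

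The summed FPKM of the core genes was 328, 343 and 243 in WT 0, WT 1 and WT 2 and 286, 268 and 373 in KO 0, KO 1 and KO 2, so that the groups overlapped and the highest sum was in a KO library. The summed FPKM of the accessory genes was 1692, 1975 and 1753 in the WT libraries and 1076, 1139 and 1550 in the KO libraries, and here the groups did not overlap. The 2 sets also differ in transcript length, with a median of 1312 bases in the core and 674.5 bases in the accessory genes. Median log2 fold changes were -0.08 in the core and -0.58 in the accessory genes.

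*Ndufa6*, an accessory subunit at the joint of the matrix arm and the membrane arm of complex I, lies on chromosome 15 from 82350140 to 82354322 (GRCm38, minus strand, a gene span that overlaps no other annotated gene). Its level was 123, 108 and 106 FPKM in WT 0, WT 1 and WT 2 and 32.2, 41.3 and 49.7 FPKM in KO 0, KO 1 and KO 2. Every KO library was below the lowest WT library, and the KO mean was 36.5% of the WT mean, at 41.1 ± 8.77 against 112 ± 8.84 FPKM (SD, n = 3). The log2 fold change was -1.47 (standard error 0.20, adjusted p = 0.170 by limma), and it lay between -1.62 and -1.31 when any 1 library was left out.

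*Ndufa1*, on the X chromosome, encodes a small membrane-arm subunit that is required for assembly of complex I. Its level was 37.4, 36.4 and 81.1 FPKM in the WT libraries and 15.6, 14.8 and 21.2 FPKM in the KO libraries. The groups were apart although WT 2 was far above the other WT libraries, and the log2 fold change was -1.50 (adjusted p = 0.438 by limma). *Ndufa13*, also known as Grim19, had 23.1, 27.5 and 37.2 FPKM in WT and 6.41, 14.2 and 13.2 FPKM in KO, with a log2 fold change of -1.42 (adjusted p = 0.463 by limma). Its span overlaps Yjefn3 on the same strand and Tssk6 on the other strand, and the sources used here do not say whether the counting used strand.

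*Ndufc1*, a subunit of the membrane arm, had 55.7, 32.6 and 53.7 FPKM in WT and 11.2, 24.5 and 20.8 FPKM in KO, a log2 fold change of -1.36 (adjusted p = 0.468 by limma). *Ndufa12*, an accessory subunit of the matrix arm, had 133, 90.1 and 86.4 FPKM in WT and 45.8, 73.0 and 56.4 FPKM in KO, a log2 fold change of -0.82 (adjusted p = 0.535 by limma). In both genes the KO libraries were below all WT libraries, and KO 1 came closest to them. Groups were likewise apart for *Ndufb10* (log2 fold change -0.77) and *Ndufa11* (-0.92).

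The remaining lower genes of complex I had groups that overlapped. *Ndufs6*, a zinc-binding accessory subunit, had 89.4, 42.3 and 22.9 FPKM in WT and 4.99, 18.8 and 23.4 FPKM in KO, so that KO 2 passed WT 2, and its log2 fold change was -1.76 (adjusted p = 0.588 by limma). It overlaps *Mrpl36* on the other strand. *Ndufa3*, *Ndufb2* and *Ndufb8* had log2 fold changes of -1.10, -1.07 and -1.02. The gene with the highest mean in complex I, *Ndufb4*, had 212, 260 and 114 FPKM in WT and 104, 137 and 236 FPKM in KO, a log2 fold change of -0.30 with a standard error of 0.39. *Ndufs7* of the core had a log2 fold change of 2.94 with a standard error of 1.71, given its 0.138 FPKM in WT 2. *Ndufa4*, whose protein is now assigned to complex IV, had 24.3, 60.5 and 47.8 FPKM in WT and 19.9, 5.55 and 49.3 FPKM in KO, and its hypoxia-inducible relative *Ndufa4l2* had 5.98, 8.70 and 6.52 FPKM in WT and 12.9, 12.4 and 6.81 FPKM in KO. Their log2 fold changes of -1.22 and 0.55 differed in sign, both with overlapping groups, and the log2 ratio of *Ndufa4l2* to *Ndufa4* gave a two-sided exact permutation p of 0.3. By symbol class, an unadjusted p under 0.05 was reached by 6 of 14 Ndufa genes (42.9%) and 3 of 10 Ndufb genes (30%). All were lower in KO, against 4.97% of all genes tested. These classes are small, with median transcript lengths of 583.5 and 747.5 bases, and their differences from all genes were not tested.

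Complex II, or succinate dehydrogenase, also belongs to the tricarboxylic acid cycle and is the only complex of the chain with no subunit from mitochondrial DNA. None of its 4 genes had an unadjusted p under 0.05 and none had groups apart. With 4 genes this cannot be told from all genes tested, of which 4.97% were lower at that p and 7.84% were lower with groups apart. *Sdha*, the flavoprotein, had 42.5, 47.9 and 32.9 FPKM in WT and 22.3, 21.5 and 43.7 FPKM in KO, a log2 fold change of -0.55 (standard error 0.31, adjusted p = 0.652 by limma). KO 0 and KO 1 were below every WT library, and KO 2 was within the WT range. *Sdhb*, the iron-sulfur subunit, and *Sdhc*, a membrane anchor, had log2 fold changes of -0.04 and 0.06, with standard errors of 0.32 and 0.25.

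In complex III, which passes electrons from ubiquinol to cytochrome c, 1 of 8 genes had an unadjusted p under 0.05. This was *Uqcrb*, a small subunit near the site of ubiquinone, which also had the highest mean level of the complex. *Uqcrb* was lower in KO, and 1 gene of 8 cannot be told from the 4.97% of all genes tested that were lower at that p. Its level was 225, 310 and 343 FPKM in WT and 140, 148 and 184 FPKM in KO, and the groups did not overlap. The log2 fold change was -0.88 (standard error 0.21, adjusted p = 0.463 by limma), and 3 near copies of its transcript exist in the annotation, defined as at least 95% identity over at least 200 bases to a gene at another locus. The genes of the 2 large core proteins, *Uqcrc1* and *Uqcrc2*, had log2 fold changes of -0.20 and 0.29, and *Uqcrfs1*, the Rieske iron-sulfur protein, had -0.23. None of the 3 had groups apart. *Uqcr10* was listed at 0 in WT 2 and at 39.2 and 61.7 FPKM in the other WT libraries, so that its log2 fold change of 1.73 had a standard error of 2.27.

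Complex IV, cytochrome c oxidase, passes the electrons to oxygen. Of its 14 tested genes, 4 were lower in KO with an unadjusted p under 0.05 (28.6%) and 1 was higher. Among all genes tested these shares were 4.97% and 3.31%, and 1 gene of 14 cannot be told from the latter. *Cox6c*, the highest of the complex, had 216, 300 and 280 FPKM in WT and 144, 169 and 191 FPKM in KO, a log2 fold change of -0.66 (standard error 0.19, adjusted p = 0.533 by limma). *Cox8a*, the smallest subunit of the common form, had 133, 141 and 180 FPKM in WT and 49.0, 94.7 and 110 FPKM in KO, a log2 fold change of -0.91 (adjusted p = 0.547 by limma). The groups were apart for both, and for *Cox5b* they were not, at 241, 273 and 163 FPKM in WT and 129, 115 and 183 FPKM in KO.

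*Cox4i2* is a form of subunit IV found in lung and vessels, where it takes part in sensing of low oxygen, and *Cox4i1* is the common form. *Cox4i2* had 29.4, 17.8 and 50.3 FPKM in WT and 7.73, 14.9 and 3.55 FPKM in KO, with the groups apart and a log2 fold change of -1.98 (standard error 0.57, adjusted p = 0.516 by limma). *Cox4i1* had 135, 150 and 187 FPKM in WT and 124, 112 and 151 FPKM in KO, a log2 fold change of -0.28 (standard error 0.19). The log2 ratio of *Cox4i2* to *Cox4i1* was on average -2.39 in WT and -4.09 in KO (two-sided exact permutation p = 0.2, n = 3 per group), since KO 1 was above WT 1. Whereas KO 2 was the highest KO library for 16 of the 22 lower genes, *Cox4i2* was lowest in KO 2. This library had the lowest summed FPKM of 10 smooth muscle genes (937, against 1835 to 5800 in the others). The other libraries did not follow that order. WT 2 had the lowest sum of the WT libraries (2505) and the highest *Cox4i2*, and KO 0 had a higher sum than KO 1 (2434 against 1835) and less *Cox4i2*. In bulk tissue, fewer cells of a type and less RNA per cell cannot be told apart.

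*Cox7a2l*, which helps to join complexes III and IV into supercomplexes, was the gene of the family that was higher in KO with an unadjusted p under 0.05. Its level was 50.0, 57.0 and 35.1 FPKM in WT and 78.8, 76.5 and 68.0 FPKM in KO. All KO libraries were above all WT libraries, and the log2 fold change was 0.68 (standard error 0.21, adjusted p = 0.543 by limma), between 0.48 and 0.83 with any 1 library left out. Its relative *Cox7a2*, the common form of subunit VIIa, had 47.1, 50.6 and 8.47 FPKM in WT and 35.9, 46.4 and 37.8 FPKM in KO.

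The forms of complex IV subunits that belong to heart and skeletal muscle were low, and each was listed at 0 in at least 3 libraries. *Cox6a2* was above 0 only in WT 1 (2.37 FPKM) and KO 2 (1.87 FPKM), which are the 2 libraries highest in heart muscle transcripts. *Cox8b* was above 0 only in WT 1, at 0.775 FPKM. *Cox7a1* had 4.57, 8.03 and 0 FPKM in WT and 0, 0 and 3.09 FPKM in KO. The log2 ratios of these forms to their common forms gave two-sided exact permutation p values of 0.5, 1 and 0.2 (n = 3 per group). Where a form was listed at 0, its ratio was set by the pseudocount and the common form, so these tests cannot decide whether the muscle forms differed. *Cox6b2*, a form of the testis, had 25.2, 25.7 and 0 FPKM in WT and 6.41, 3.04 and 12.2 FPKM in KO, while the common form *Cox6b1* ranged from 77.8 to 96.6 FPKM over the 6 libraries. The common form *Cox6a1* had 37.4, 46.5 and 39.1 FPKM in WT and 27.2, 2.65 and 27.0 FPKM in KO, with the groups apart and a log2 fold change of -1.69 (standard error 0.82, adjusted p = 0.625 by limma) that lay between -2.25 and -0.59 with any 1 library left out.

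The genes of ATP synthase are given by part of the enzyme. These parts, too, were set out after the values were known, and differences between them were not tested. The 5 genes of the catalytic F1 head and its central stalk were *Atp5a1*, *Atp5b*, *Atp5c1*, *Atp5d* and *Atp5e*. Their median log2 fold change was 0.066, and none had an unadjusted p under 0.05. With only 5 genes, this cannot be told from the 4.97% of all genes tested that were lower at that p. *Atp5b*, the catalytic beta subunit and the highest gene of the whole family, had 290, 471 and 241 FPKM in WT and 313, 332 and 440 FPKM in KO. *Atp5a1*, the alpha subunit, had 183, 224 and 217 FPKM in WT and 193, 137 and 241 FPKM in KO. For both genes the WT and KO ranges overlapped almost in full.

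The 4 genes of the peripheral stalk, which holds the head still against the rotor, had a median log2 fold change of -0.81. Of these, 3 were lower in KO with an unadjusted p under 0.05 (75%), against 4.97% of all genes tested. The stalk was set out as a part after the values were known, and 4 genes are few. *Atp5f1*, the b subunit, lies on chromosome 3 from 105942698 to 105960099 (GRCm38, minus strand) and overlaps Wdr77 on the other strand. Its level was 113, 117 and 114 FPKM in WT and 58.0, 51.1 and 72.1 FPKM in KO, a KO mean of 52.6% of the WT mean. The WT libraries were within a few percent of each other and all KO libraries were below them. The log2 fold change was -0.94 (standard error 0.17, adjusted p = 0.332 by limma). *Atp5h*, the d subunit, had 204, 216 and 318 FPKM in WT and 139, 137 and 177 FPKM in KO, a log2 fold change of -0.69 (adjusted p = 0.545 by limma) with the groups apart. *Atp5j*, coupling factor 6, had a log2 fold change of -1.09 and overlaps *Gabpa* on the other strand, and *Atp5o*, which joins the stalk to the head, had -0.06.

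*Atp5k* encodes the e subunit, a small membrane protein that helps ATP synthase to form dimers. It lies on chromosome 5 from 108433244 to 108434448 (GRCm38, minus strand) and overlaps no other annotated gene. Its level was 73.2, 29.5 and 27.0 FPKM in WT, and it was listed at 0 in KO 0 and KO 1 and at 3.64 FPKM in KO 2. All KO libraries were below all WT libraries. The log2 fold change was -6.86 (standard error 1.37, adjusted p = 0.383 by limma), a value that depends on the pseudocount because of the values of 0.

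Without KO 2, and with the filter applied to the other 5 libraries, the adjusted p of *Atp5k* by limma was 0.0238, the only one of the family under 0.05 in any fit. KO 2 was the only KO library above 0 for this gene. Without it both remaining KO values were set by the pseudocount and equal, and the standard error was 0.69 instead of 1.37. The smaller adjusted p thus rests on leaving out that value. An exact 0 can be a failed estimate in such a table, the transcript has only 321 bases, and a near copy of it, Atp5k-ps2, exists in the annotation. Of the other small membrane subunits, *Atp5j2*, the f subunit, had 73.4, 43.5 and 101 FPKM in WT and 14.0, 47.1 and 21.8 FPKM in KO, a log2 fold change of -1.50 (adjusted p = 0.545 by limma), while *Atp5l*, the g subunit, had 0.06. *Atp5l* has 9 near copies.

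The c ring of the rotor is made of 1 protein that is encoded by the 3 genes *Atp5g1*, *Atp5g2* and *Atp5g3*. *Atp5g2* had 47.6, 62.9 and 77.6 FPKM in WT and 36.6, 20.8 and 53.4 FPKM in KO, a log2 fold change of -0.84 (adjusted p = 0.600 by limma) with overlapping groups. *Atp5g3* had 51.7, 66.1 and 36.7 FPKM in WT and 49.3, 66.5 and 63.2 FPKM in KO, a log2 fold change of 0.24. As a share of the summed FPKM of the 3 genes, *Atp5g3* made up 45.9%, 44.0% and 29.2% in WT and 52.0%, 69.1% and 44.7% in KO, so that KO 2 fell within the WT range.

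**Figure D2:**
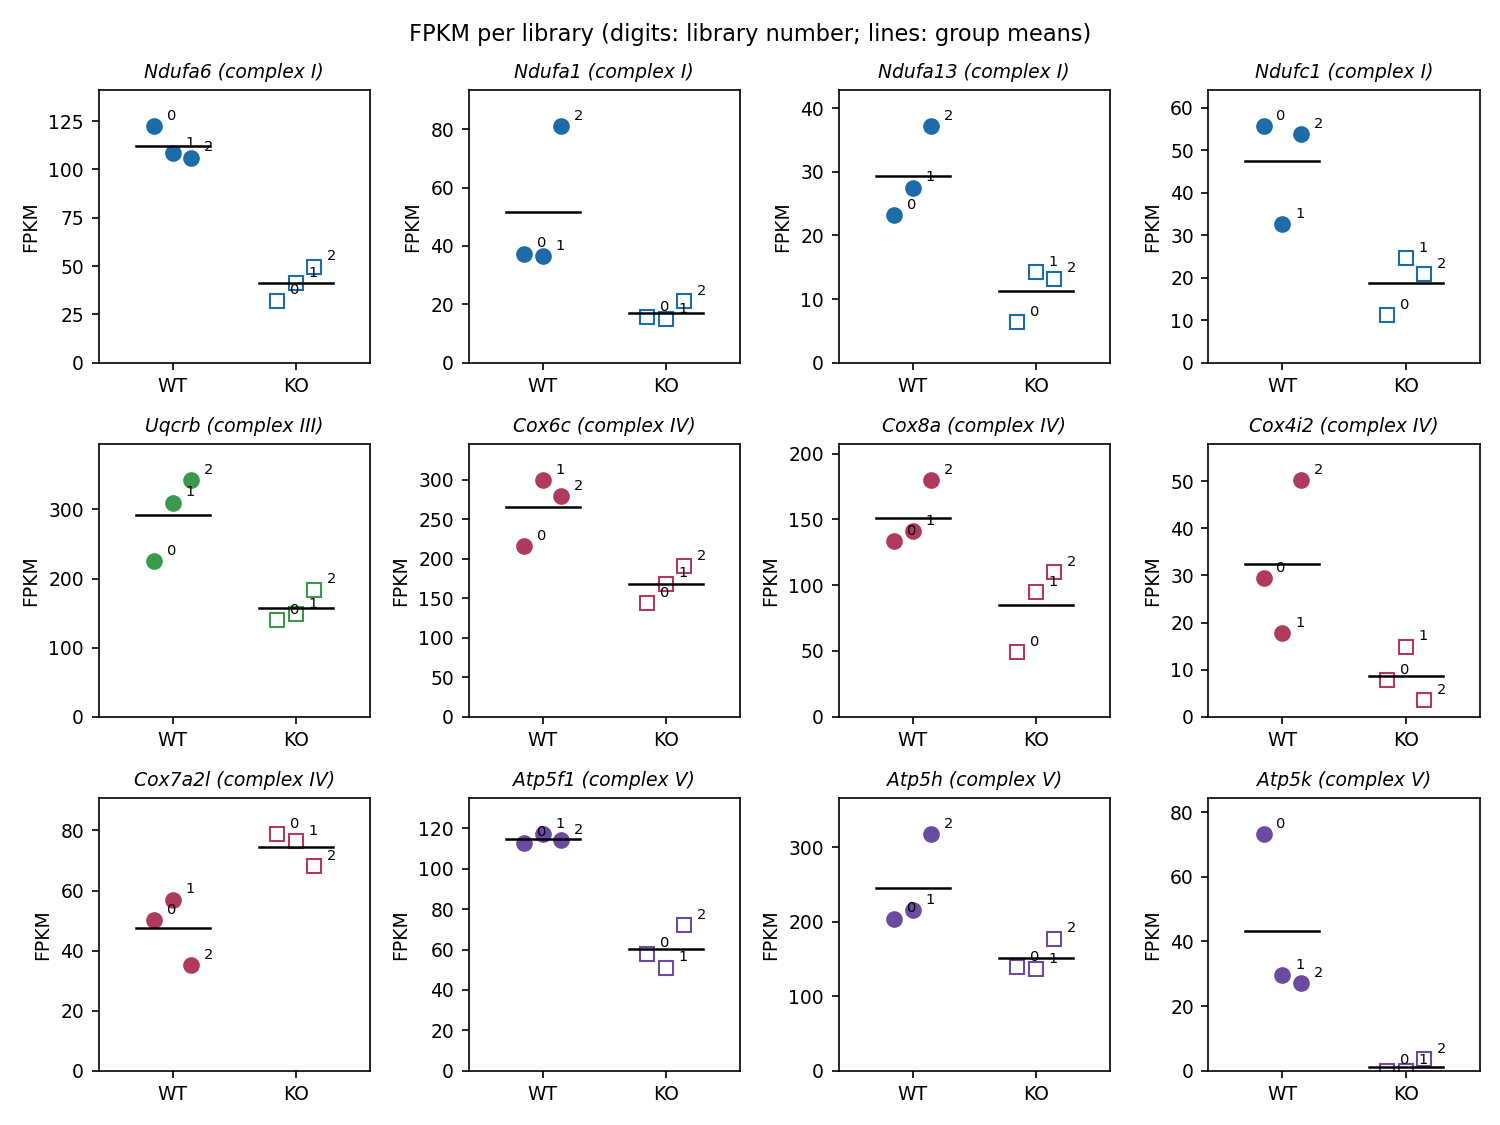
FPKM of 12 genes of the family in each library, with WT libraries as filled circles, KO libraries as open squares, library numbers as digits and group means as lines. All 12 are among the members whose groups were apart, so the separation in every panel follows from the choice of genes. KO is above WT for *Cox7a2l* and below WT for the other 11 genes. Of 79 members tested, groups were apart and lower for 15 and apart and higher for 3, against 7.84% and 8.21% of all genes tested.

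Across libraries, the family was highest in WT 1 and lowest in KO 0 and KO 1. The median deviation of the tested genes from their own mean over the 6 libraries was 0.050, 0.40 and 0.11 (log2) in WT 0, WT 1 and WT 2 and -0.33, -0.30 and 0.20 in KO 0, KO 1 and KO 2. KO 2 was thus above 2 of the WT libraries, and the groups overlapped. The summed FPKM of the 84 genes was 5635, 6772 and 5891 in WT and 4303, 4251 and 5693 in KO. For complex I and complex IV the summed FPKM did not overlap between the groups, at 1996 to 2318 against 1363 to 1923 and at 1120 to 1280 against 833 to 1014. For complexes II, III and V it did.

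The libraries with the highest deviation of the family within each group, WT 1 and KO 2, were also those with the most heart muscle transcripts, and heart muscle is rich in mitochondria. Without these 2 libraries, 21 genes were lower in KO at an unadjusted p under 0.05 and 4 were higher, against 3.39% and 3.27% of all genes tested, and the median relative to all genes was -0.48. In the 4 libraries that remained, 33 genes had groups apart and lower in KO and 10 had groups apart and higher, against 17.6% and 20.4% of all genes tested. Without KO 0, which holds transcripts of both sexes, 12 genes were lower in KO at an unadjusted p under 0.05, against 3.98% of all genes tested, and the median was -0.36.

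Markers of other cells also differed between the groups. The summed FPKM of 10 smooth muscle genes was 5800, 2903 and 2505 in WT and 2434, 1835 and 937 in KO. It was 3863, 7583 and 4351 in WT and 12639, 24359 and 4284 in KO for the erythroid genes, of which 8 of 10 were in the table, and 20.3 to 49.6 in WT against 53.1 to 200.1 in KO for 10 Schwann cell genes. For 10 neuron genes it was 44.1 to 61.3 in WT and 84.0 to 105 in KO. KO 2 was within the WT range for the erythroid genes and farthest from it for the smooth muscle, Schwann cell and neuron genes. The sum of 8 brown fat genes was 72.5, 57.0 and 118 in WT and 13.7, 36.9 and 54.6 in KO, with most of it from *Fabp4*, which is not limited to brown fat, while *Ucp1*, which defines that tissue, was listed at 0 in every library. Their part in the differences of the family was not tested.

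**Figure D3:**
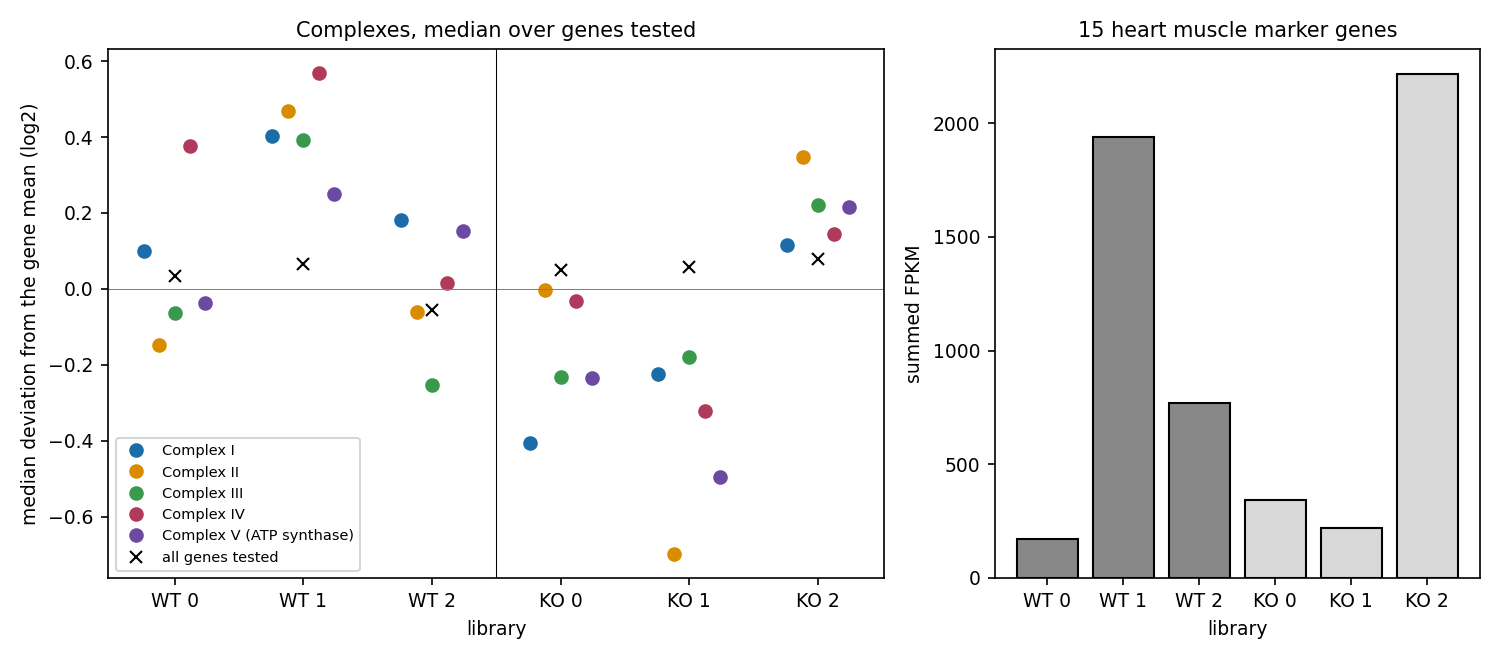
Left, median deviation (log2) of the tested genes of each complex from their own mean over the 6 libraries, with 1 colored point per complex and a cross for all genes tested. Right, summed FPKM of 15 heart muscle genes in each library. WT 1 and KO 2 have the most heart muscle transcripts, and in each complex WT 1 is the highest WT library and KO 2 the highest KO library.

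Genes of the family are short, with a median transcript length of 742 bases against 2702.5 bases for all genes tested, and short genes were more often lower in KO. Among protein-coding genes under 600 bases, 9 of 27 members (33.3%) and 27 of 166 other genes (16.3%) were lower in KO with an unadjusted p under 0.05. Between 600 and 1000 bases this held for 9 of 25 members (36.0%) and for 92 of 717 other genes (12.8%). Between 1000 and 2000 bases it held for 3 of 19 members (15.8%) and for 6.47% of the others, and above that for 1 of 6 members and 3.57% of the others. After removal of the trend with transcript length from each library, 13 of 77 members were lower in KO and 2 were higher at an unadjusted p under 0.05, against 4.73% and 3.22% of all genes in that fit, with a median of -0.20 relative to all genes. *Ndufa6* then had a log2 fold change of -1.23 (adjusted p = 0.317 by limma).

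**Figure D4:**
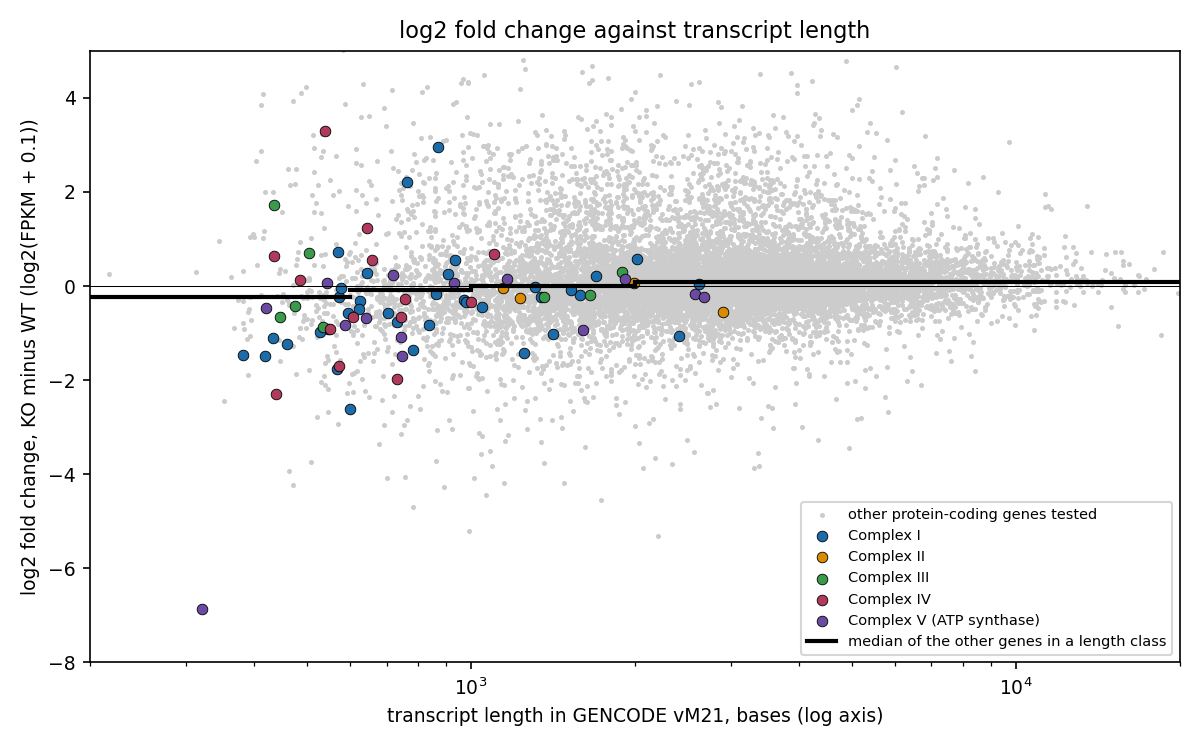
Log2 fold change (KO minus WT, on log2(FPKM + 0.1)) against transcript length (log axis), with the family colored by complex and the other protein-coding genes tested in grey. Genes outside the axes are not drawn. Black lines are medians of the other genes in classes of length, which rise from -0.23 under 600 bases to 0.086 from 2000 bases, and 52 of the 77 members with a length have fewer than 1000 bases.

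Near copies and overlapping genes touch many of the members, since FPKM of such genes can include fragments of another. A near copy exists for 19 of the 84 members and for 8 of the 22 lower genes, and 36 members overlap another annotated gene, 28 of them on the other strand. The lower genes with a near copy were *Ndufa12*, *Ndufs6*, *Uqcrb*, *Cox5b*, *Cox6c*, *Atp5f1*, *Atp5h* and *Atp5k*, and *Cox7a2l* has one as well. The tested members with neither a near copy nor a value of 0 numbered 57. Of them, 14 were lower in KO with an unadjusted p under 0.05 (24.6%, against 4.97% of all genes tested). Groups were apart and lower in KO for 9 (15.8%, against 7.84%), and the median log2 fold change was -0.26. Values of 0 occurred in 7 tested members, 6 of which were at 0 in WT 2 (*Ndufb3*, *Ndufs5*, *Uqcr10*, *Cox7c*, *Cox6b2* and *Cox7a1*).

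The promoters of respiratory chain genes are known for letters bound by the factors NRF1, YY1 and the ETS family, and RefSeq promoters of GRCm38.p6 (250 bases before to 50 bases after the annotated start) were matched to 69 of the 84 genes, as 75 promoters. The NRF1 letters (GCGC, 1 base of any kind and TGCGC) were found in 18 of the 75 promoters (24.0%) and in 4.6% of all 32851 promoters of that length, on either strand. CCGGAAG (ETS) was found in 16 (21.3%), against 8.86%, and AAGATGGC (YY1) in 12 (16.0%), against 2.75%. Matches of ETS and YY1 can share the letters AAG, and a match is a description of the sequence only.

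The 250 bases before the start are shown for *Ndufa6* and *Atp5k*, which stood out among single genes, and for *Atp5h* and *Cox6a1*. The last 2 hold both NRF1 and ETS letters before the start and had groups apart. They are given 5′ to 3′ on the strand of the gene, and capitals mark the letters of the 3 motifs or their reverse complements.
*Ndufa6*, chr15:82354292-82354541, minus strand: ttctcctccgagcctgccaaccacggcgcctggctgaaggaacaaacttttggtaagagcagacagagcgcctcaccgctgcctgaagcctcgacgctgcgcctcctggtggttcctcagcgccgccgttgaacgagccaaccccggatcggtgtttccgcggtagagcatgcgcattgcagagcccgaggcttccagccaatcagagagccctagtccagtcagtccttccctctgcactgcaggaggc
*Atp5k*, chr5:108434400-108434649, minus strand: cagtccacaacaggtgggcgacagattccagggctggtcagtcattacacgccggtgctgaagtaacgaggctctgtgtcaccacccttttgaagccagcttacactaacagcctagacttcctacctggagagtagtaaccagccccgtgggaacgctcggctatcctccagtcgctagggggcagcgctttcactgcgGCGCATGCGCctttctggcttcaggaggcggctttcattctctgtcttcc
*Atp5h*, chr11:115419920-115420169, minus strand: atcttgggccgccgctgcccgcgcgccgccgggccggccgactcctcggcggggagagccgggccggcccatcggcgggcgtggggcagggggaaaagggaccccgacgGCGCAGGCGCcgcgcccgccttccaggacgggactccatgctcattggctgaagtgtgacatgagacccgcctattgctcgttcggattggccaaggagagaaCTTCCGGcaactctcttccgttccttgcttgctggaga
*Cox6a1*, chr5:115348959-115349208, minus strand: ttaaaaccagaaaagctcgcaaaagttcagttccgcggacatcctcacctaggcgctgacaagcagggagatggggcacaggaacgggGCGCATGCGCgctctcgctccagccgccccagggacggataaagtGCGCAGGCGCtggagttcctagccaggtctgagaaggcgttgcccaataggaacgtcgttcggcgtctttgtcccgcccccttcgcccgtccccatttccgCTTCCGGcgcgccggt
The *Ndufa6* promoter holds none of the letters before the start, and its NRF1 letters begin 23 bases after it. *Atp5k* holds NRF1 letters 50 bases before the start and ETS letters that begin 12 bases after it, outside the bases shown. *Cox6a1* holds NRF1 letters at 2 places and ETS letters once.

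Of the 22 lower genes, 19 had a promoter in RefSeq, and 7 of these (36.8%) held the YY1 letters, as did 4 of the 47 other tested members with a promoter (8.51%). For NRF1 the numbers were 6 of 19 and 11 of 47, and for ETS 4 of 19 and 12 of 47. No test was made of these shares. The YY1 letters and up to 10 bases on each side are shown for all 11 genes, first the 7 that were lower, because these letters differed most in share between the lower and the other members. Capitals mark AAGATGGC or its reverse complement.
*Atp5f1*, chr3:105959249-105959276, minus strand: tgtgcgagcgGCCATCTTgctcctgccc
*Atp5j*, chr16:84835047-84835074, minus strand: aagtgtaggaAAGATGGCggagtcttag
*Atp5j2*, chr5:145191501-145191528, minus strand: ccaggacttcAAGATGGCgtcactcggt
*Ndufa3*, chr7:3617385-3617412, plus strand: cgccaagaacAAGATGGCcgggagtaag
*Ndufb8*, chr19:44555393-44555414, minus strand: ggagaaggtgAAGATGGCtgcc
*Ndufc1*, chr3:51408916-51408943, minus strand: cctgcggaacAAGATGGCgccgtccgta
*Ndufs6*, chr13:73328433-73328459, minus strand: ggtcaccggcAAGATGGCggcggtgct
*Atp5sl*, chr7:25619430-25619457, plus strand: gttacctggcAAGATGGCggcgcccaga
*Ndufa9*, chr6:126849098-126849125, minus strand: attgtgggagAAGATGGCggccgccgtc
*Ndufs4*, chr13:114388045-114388069, minus strand: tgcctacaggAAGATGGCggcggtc
*Ndufs7*, chr10:80249463-80249490, plus strand: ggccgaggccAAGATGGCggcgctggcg
In 9 of the 11 genes the letters began between 22 and 38 bases after an annotated start. For *Atp5sl*, which is among these 9, the same letters began 53 bases before a second annotated start. In *Atp5j* the letters began 88 bases before the start, and in *Atp5f1* they spanned it, on the other strand.

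The other genes on which the complexes depend were taken from lists of related genes. Of all genes tested, 4.97% were lower and 3.31% higher in KO at an unadjusted p under 0.05. In lists this small, 1 such gene cannot be told from these shares. Of the assembly factors of complex I, 1 of 13 tested was lower in KO with an unadjusted p under 0.05 (*Ndufaf6*, log2 fold change -3.50). The median log2 fold change of the list was 0.11. *Ndufaf6* had only 1.93, 3.92 and 7.78 FPKM in WT and 0.247, 0 and 1.17 FPKM in KO, so that its change depends on the pseudocount. Of the assembly factors of complexes II and III, 1 of 6 was higher (*Ttc19*, 0.72). Of those of complex IV, 2 of 18 were lower (*Cox17*, -3.86, and *Cox20*, -4.22), with a median of 0.28. Each was listed at 0 in 1 KO library, and for *Cox20* the groups overlapped. Of 6 genes of ATP synthase assembly and its inhibitor, 1 was lower (*Atpif1*, the inhibitor, -0.69). None of the 13 regulators of mitochondrial biogenesis and none of the 16 genes of glycolysis had an unadjusted p under 0.05. In the tricarboxylic acid cycle, 3 of 17 genes (17.6%) were lower (*Idh2*, *Idh3g* and *Sucla2*), with a median of -0.08.

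Many ribosomal protein genes are short like those of the family. In the large subunit of the mitochondrial ribosome 4 of 48 genes (8.33%) were lower with an unadjusted p under 0.05, in the small subunit 6 of 29 (20.7%) and in the cytosolic ribosome 26 of 76 (34.2%), with 1 gene of the last higher. These shares stand against 4.97% of all genes tested. In the same order, the median transcript lengths of the lists were 1228, 1063 and 772.5 bases. Of the protein-coding genes outside the family, 16.3% were lower under 600 bases, 12.8% between 600 and 1000 bases and 6.47% between 1000 and 2000 bases. Those genes include the ribosomal genes themselves, and the differences were not tested. The median log2 fold changes of the lists were -0.16, -0.34 and -0.36. *Mrps21* was the small-subunit gene with the smallest p, at 136, 84.5 and 86.6 FPKM in WT and 33.2, 24.7 and 43.5 FPKM in KO (log2 fold change -1.60, adjusted p = 0.317 by limma). No gene of these lists had an adjusted p under 0.05 by limma.

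**Figure D5:**
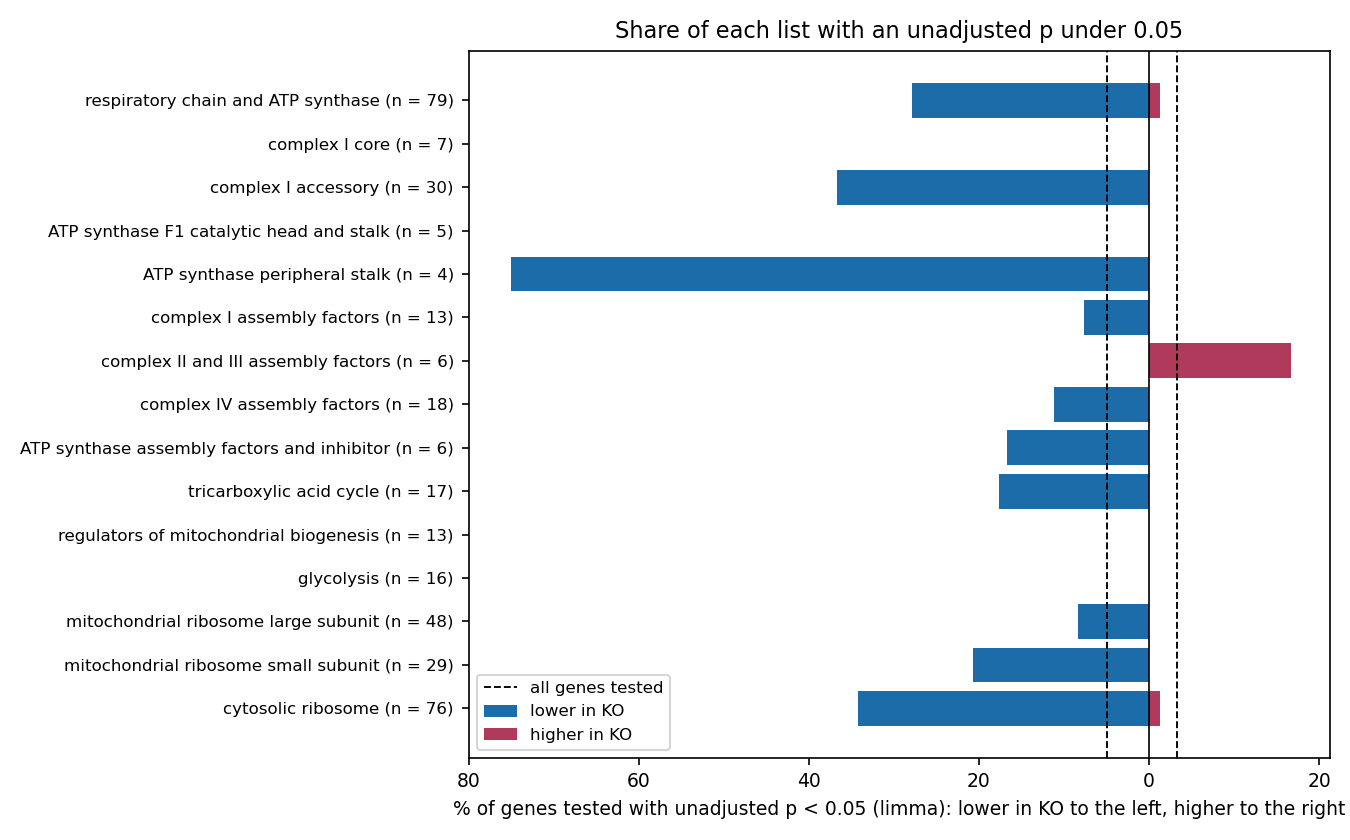
Share of the tested genes of each list with an unadjusted p under 0.05 by limma, lower in KO to the left and higher in KO to the right, with the number tested in parentheses and dashed lines at the shares of all genes tested (4.97% lower and 3.31% higher). The share lower in KO was 27.8% in the family, 36.7% in the accessory genes of complex I, 0% in its core and in the F1 head, and 34.2% in the cytosolic ribosome. The core (n = 7) and the F1 head (n = 5) hold too few genes to tell 0% from 4.97%.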

How the data were processed

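Bulk RNA-Seq of E17.5 DA gave 3 WT and 3 KO libraries, grouped by their titles. The authors trimmed the reads, aligned them to mm10 with TopHat2 and deposited FPKM values made with Cufflinks, 1 per gene and library. Versions, annotation, strand and scaling between libraries are not given in the sources used here. Depth is unknown, so no counting interval was given. From the deposited FPKM, log2(FPKM + 0.1) was fitted for all genes with a mean of at least 1 FPKM with limma 3.58.1 in R 4.3.3 (lmFit and trended eBayes, two-sided tests, Benjamini-Hochberg adjustment with a threshold of 0.05), after the script was tested on simulated data. Cuffdiff, which the study also used, needs aligned reads and was not repeated. Exact permutation tests (scipy 1.17.1) were used for isoform ratios. GENCODE vM21 gave positions and lengths, with 82 of 84 genes matched, and blastn 2.17.0 the near copies. Named genes are *Ndufa6*, *Atp5k*, the 2 highest and the most changed of each complex, the 20 with the smallest unadjusted p, tissue isoforms and members at 0, and other members are named where their part of a complex is described. The members, lists and tests were chosen with earlier results of these data known. Alternatives were pseudocounts of 0.01 and 1, other filters, quantile and median scaling, other variance models, a replicate block, removal of the length trend and omission of libraries. The values of 1 member are not reported here on their own, and it is counted in the totals.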

Additional observations from a re-analysis of the deposited data

How the results depend on the processing

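With the replicate block, 22 genes of the family were lower and 1 higher at an unadjusted p under 0.05, as without it (5.23% of all genes lower). Same-numbered libraries did not deviate together (correlations 0.12, -0.076 and -0.0088), so the numbers were not taken as pairs. The 22 became 13 without the variance trend, 10 without moderation, 13 with the length trend removed and 14 with the replicate block as well, against 3.57%, 4.19%, 4.73% and 4.92% of all genes, and the 1 higher gene became 2 without a filter, 2 and 4 with the length trend removed (the latter with the replicate block) and 4 without WT 1 and KO 2. That omission left 33 lower and 10 higher genes with groups apart, against 17.6% and 20.4% of all genes. It gave medians relative to all genes of -0.67 for complex V, -0.40 for complex I assembly factors, -0.56 for the small mitochondrial and -0.47 for the cytosolic ribosome. Complex I assembly factors had -0.42 with a mean of at least 5 FPKM. Assembly factors of complexes II and III had 0.30 without a filter and 0.24 with the length trend removed, where the large mitochondrial ribosome had -0.016. The cytosolic ribosome had -0.50 without a filter, -0.38 with a mean of at least 5 FPKM or without genes at 0, -0.22 with quantile scaling and -0.25 with the length trend removed. With any 1 library left out, 0 genes passed the adjusted test. At an unadjusted p under 0.05, 12 (without KO 0) to 25 were lower and 1 to 4 (without WT 1) higher. Of all genes, 3.84% to 4.75% were lower and 1.57% to 5.14% higher at that p. Groups were apart and lower for 16 to 31 (without KO 2) and apart and higher for 3 to 9, against 11.3% to 15.3% of all genes. Medians lay between -0.54 and -0.27 for the family, -0.69 (without KO 2) and -0.32 for complex I, -0.42 and 0.018 for II, -0.78 (without KO 2) and -0.080 (without KO 1) for V, -0.041 and 0.25 for assembly factors of II and III, -0.52 and -0.17 for the small mitochondrial and -0.47 and -0.35 for the cytosolic ribosome. The filter was also applied over the other 5 libraries, a choice made after the data were seen. Without KO 2, 1 gene then passed the adjusted test (*Atp5k*, at 0 in both KO libraries that remained). That fit had the most genes lower at an unadjusted p under 0.05, 26, against 4.16% of all genes. Without WT 0 or without WT 2, 24 and 25 genes were apart and lower, against 12.2% and 13% of all genes. Without KO 1, 6 were apart and higher, against 12.6%. Groups of fewer libraries part more often, and with all libraries these shares were 7.84% and 8.21%. Medians with this filter were -0.23 for the small mitochondrial ribosome without WT 2 and -0.77 for V without KO 2. They were -0.31 for I without WT 1 and -0.076 for V without KO 1. The causes were not tested. Of 44 named genes, 8 changed sign under some alternative (*Atp5a1*, *Atp5b*, *Atp5g1*, *Cox6b2*, *Cox7a2*, *Sdhb*, *Sdhc* and *Uqcr10*), none of them at an unadjusted p under 0.05 in the fit reported.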
